A study of Mus musculus with 22 samples.

Results

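The interferon-gamma inducible GTPases described here are 10 mouse genes, 6 of which encode guanylate-binding proteins (Gbp2, Gbp3, Gbp4, Gbp5, Gbp6 and Gbp7) and 4 immunity-related GTPases (Igtp, Irgm1, Irgm2 and Iigp1). They were taken by name from a list of GBP and IRG genes, once Ensembl identifiers had been matched to mouse symbols, and they make up 10 of the 31116 genes listed in both count tables.

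Bulk RNA sequencing was done on Ly6Chi monocytes and on SigF+CD11b- alveolar macrophages sorted from the lungs of mice of the C57BL/6 strain labelled with the SP-CI73T mutant genotype, in which tamoxifen removes a neomycin cassette and so raises a mutant surfactant protein C in the epithelium. Each cell type had an untreated control group and groups taken 3 d and 14 d after tamoxifen, with 4 monocyte libraries per group, 4 control macrophage libraries and 3 macrophage libraries at each time. The study's methods place the dose in adult animals of both sexes at 8 to 12 weeks of age and pool 2 kinds of control, oil-treated mice with the Flp-O recombinase and tamoxifen-treated mice without it. For the sequenced monocytes, however, the study's results and figure legend name mutant mice given oil as the controls, and the labels call every control untreated and give no sex. The recombinase is expressed from the Rosa26 locus, and since all 6 groups carry the mutant allele, no group is wild type.

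Monocytes were gated as CD11b+Ly6Chi cells after alveolar macrophages, eosinophils, Ly6G+ neutrophils and CD3+ lymphocytes had been gated out; no gate against natural killer cells is named. Monocyte libraries held 15451460 to 28789639 counts, and macrophage libraries 4610720 to 17074863, with the 3 macrophage libraries at 14 d the shallowest (5618291, 6838893 and 4610720 counts). In the 14 d macrophage libraries 3 counts of a gene correspond to 0.378 to 0.507 counts-per-million (CPM), so low values of Gbp6 and Iigp1 there rest on few reads.

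Guanylate-binding proteins are large GTPases that interferons induce and that assemble on the vacuoles of intracellular pathogens and on bacterial surfaces, where they break membranes open and give inflammasomes access to microbial ligands. Immunity-related GTPases fall into GKS effectors such as Iigp1, which load onto pathogen vacuoles and destroy them, and GMS regulators (Igtp, Irgm1 and Irgm2), which sit on the cell's own membranes and hold the effectors inactive there. In the lung, interferon-gamma from T and natural killer cells raises both families in macrophages and monocytes, and type I interferon raises many of the same genes.

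Several measures of the libraries moved with the groups and are given before the genes. Xist, transcribed from the inactive X chromosome, measured 51.6 to 173 CPM in control monocytes and 26.0 to 65.4 CPM at 3 d, but 0.0464 to 0.242 CPM at 14 d. In macrophages Xist lay between 209 and 304 CPM in controls, between 125 and 262 CPM at 3 d and between 1.35 and 4.03 CPM at 14 d. The Y-linked gene Ddx3y reached 36.7 to 43.9 CPM in the 14 d monocytes and 37.7 to 56.1 CPM in the 14 d macrophages, with at most 2 counts in each library of the other groups. In both cell types, then, every 14 d library carried Y-linked transcripts and almost no Xist while the control and 3 d libraries showed the opposite, and an effect of day 14 on any GTPase gene cannot be told apart from one of this pattern.

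Levels of the 10 genes in the control mice set the scale for the changes. Scaled to exon length, the IRG regulators led in monocytes together with Gbp2 and Gbp3, and Gbp4, Gbp6 and Iigp1 were at the low end. Igtp, a regulator of the endoplasmic reticulum and of lipid droplets, averaged 47.7 CPM per kb of exon in control monocytes. Irgm1, the regulator whose loss leaves mice open to mycobacteria, averaged 43.1 CPM per kb in the same libraries. The other means per kb there ran from 32.9 for Gbp2, 26.7 for Gbp3 and 20.05 for Irgm2 through 8.42 for Gbp7 to 1.72 for Gbp5, 1.28 for Gbp4, 0.455 for Gbp6 and 0.361 for Iigp1. Macrophages ranked the genes in another order, with Gbp2 and Gbp7 near the top and Gbp3 well down. Among control macrophages Gbp2 led with 11.7 CPM per kb, ahead of Igtp and Gbp7, both at 7.18. Lower means per kb in those macrophages belonged to Irgm1 (3.99), Irgm2 (2.85), Gbp3 (2.23), Gbp5 (0.678), Gbp6 (0.411), Gbp4 (0.225) and Iigp1 (0.0854).

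Control alveolar macrophages thus carried less of the GTPase transcripts than control monocytes, most of all for Gbp3 and Irgm1, and least for Gbp7 and Gbp6. All 10 members passed the filter on low counts in each of the 3 fits (monocytes, macrophages and both together), and a gene is called where edgeR gave an adjusted p under 0.05 and a fold above 1.5. In the fit over all 22 samples, 9 of the 10 members were called lower in control macrophages and 0 higher, where 19.7% of the 26692 genes tested were called lower and 24.5% higher. Gbp3 was 15.5-fold lower in macrophages (log2 -3.96, standard error 0.28, adjusted p 9.69e-12) and Irgm1 14.0-fold lower (log2 -3.80, adjusted p 8.64e-13). The log2 differences of the next members were -3.18 for Irgm2, -3.09 for Igtp, -2.88 for Gbp4, -2.42 for Iigp1, -1.86 for Gbp2 and -1.70 for Gbp5. Gbp7 passed narrowly at 1.51-fold lower (log2 -0.59, adjusted p 0.0179), and Gbp6 did not pass (log2 -0.53, adjusted p 0.350). Leaving out control macrophage library 2, control monocyte library 1 or control monocyte library 2 ended the call of Gbp7, at log2 values of -0.52, -0.48 and -0.53, and so did library size scaling (-0.16); the call held in 10 of 18 alternatives. With control samples of the same number paired (an alternative chosen after seeing the data), Gbp7 fell short of the fold threshold (-0.57, adjusted p 0.0252), and the other 8 kept their calls. The median log2 difference of the members was -2.65, beside 0.048 for all genes tested. Since the tables of the 2 cell types were made separately, cell type and table cannot be told apart here.

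Other interferon genes differed between the control cell types in the same direction as the GTPases. All 16 type I interferon inducible genes were lower in control macrophages (median log2 -5.70), among them Usp18 (-7.42), Oasl2 (-7.15) and Rtp4 (-6.96). Further GTPases outside the 10, a list with Ifi47, Tgtp1 and Mx1, were lower for 11 and higher for 2 of the 16 tested (Gbp8 1.30 and Gm4951 2.87). For the interferon-gamma receptor and signalling genes 10 of 13 were lower and 0 higher, including Ifng (-4.23), Ifngr1 (-3.38), Ifngr2 (-1.48), Irf1 (-3.10) and Irf8 (-2.33). Interferon-gamma inducible genes other than GTPases were lower for 15 and higher for 2 of 19, with Slamf8 at -7.71, Cxcl11 at 2.97 and Cd274 at 2.30, and the conjugation, ubiquitin and inflammasome partners of the GTPases were lower for 10 and higher for 1 of 16 (Nlrp3, 0.97). Markers of the 2 sorted cell types went each their own way: all 6 monocyte markers were lower in control macrophages (median log2 -7.37) and all 9 alveolar macrophage markers higher (median 3.62). Chil3, the most abundant gene of that macrophage list, still averaged 10294 CPM in control monocytes, beside 23804 CPM in control macrophages. T and NK cell markers were lower in control macrophages for 9 and higher for 1 of 12 (median -4.09), and neutrophil markers lower for 6 and higher for 0 of 8 (median -3.12), in the direction of the GTPases. Dendritic cell markers were lower for 2 of 6 and endothelial markers for 3 of 6 (higher for 0 and 0), epithelial markers lower for 2 and higher for 2 of 7, B cell markers lower for 1 and higher for 1 of 5, and fibroblast markers higher for 3 and lower for 0 of 5. Whether cells of these types had a part in the GTPase differences was not tested.

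**Figure D1:**
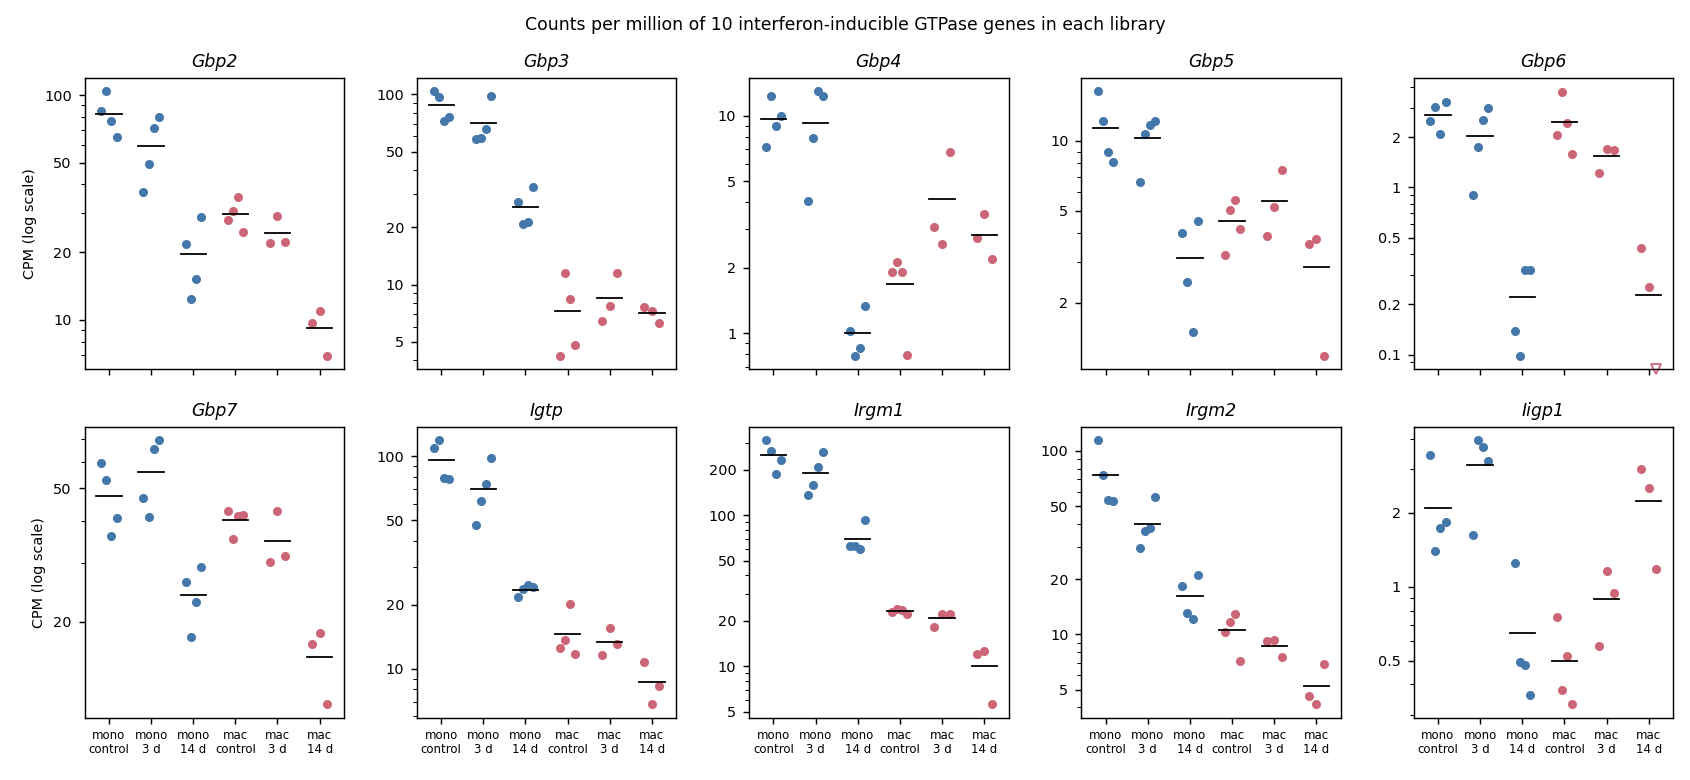
CPM of each of the 10 GTPase genes (log axis) in every library of the 6 groups, monocytes in blue and macrophages in red, with 1 point per library and a bar at the group mean; an open triangle marks a library with 0 counts. The 14 d monocytes lie below both other monocyte groups for all 10 genes, while Iigp1 in macrophages is highest at 14 d. The share of all genes that lie apart in this way was not computed.

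In monocytes 3 d after tamoxifen the GBPs overlapped with the controls. Gbp2, which coats pathogen vacuoles and is anchored there by a lipid tail, stood at 85.0, 104, 76.8 and 65.1 CPM in the 4 control libraries and 36.9, 49.6, 71.1 and 80.3 CPM at 3 d. Gbp3, of the same chromosome 3 cluster, measured 104, 97.0, 72.6 and 76.0 CPM in controls and 58.1, 59.0, 65.8 and 98.2 CPM at 3 d. For Gbp5, which promotes inflammasome assembly, control values were 16.4, 12.2, 8.93 and 8.10 CPM and 3 d values 6.62, 10.7, 11.7 and 12.2 CPM. Each of the 3 genes had 1 or more 3 d libraries inside the control range, for Gbp3 library 4 only, with library 1 the lowest for Gbp2, Gbp3 and Gbp5. Gbp7, linked to autophagy and to the oxidase of phagosomes, gave 59.4, 52.7, 36.1 and 40.8 CPM in controls and 46.8, 41.1, 65.3 and 69.5 CPM at 3 d. The chromosome 5 gene Gbp4 read 7.17, 12.3, 9.01 and 9.93 CPM in controls and 4.06, 7.90, 12.95 and 12.3 CPM at 3 d. Gbp6, on the same chromosome, read 2.49, 3.01, 2.09 and 3.25 CPM and 0.894, 1.75, 2.53 and 2.96 CPM, so that all 6 GBPs overlapped between control and 3 d.

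The IRGs at 3 d also had libraries that overlapped with the controls. Igtp measured 109.6, 119, 79.1 and 78.0 CPM in control monocytes and 47.5, 61.3, 74.1 and 97.8 CPM at 3 d. Irgm1 measured 315, 268, 187 and 233 CPM and 137, 159, 209.9 and 262 CPM. Irgm2, a Golgi regulator that restrains caspase-11 responses, measured 114, 74.2, 53.9 and 53.4 CPM in controls and 29.7, 36.8, 38.2 and 55.9 CPM at 3 d. For Irgm2 only library 4 at 3 d reached the control range, above the 2 lowest controls. Iigp1, the vacuole-breaking effector, had 3.44, 1.40, 1.73 and 1.83 CPM in controls and 1.63, 3.95, 3.71 and 3.25 CPM at 3 d, with 3 of the 4 libraries at 3 d near or above the highest control.

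At 3 d edgeR called 1 of the 10 members lower in monocytes and 0 higher, where 14.4% of the 22353 genes tested were called lower and 36.8% higher. That member was Irgm2, 1.84-fold lower (log2 -0.88, standard error 0.27, adjusted p 0.0145). Without 3 d library 1, 2 or 3 its log2 value was -0.71, -0.81 or -0.79 and no longer passed, and neither did it under library size scaling (-0.39). Log2 values of the other regulators were -0.46 for Igtp and -0.38 for Irgm1, and those of the GBPs ran from -0.48 for Gbp2 to 0.24 for Gbp7. Without 3 d library 4, Igtp (-0.68) and Irgm1 (-0.59) passed as lower. Iigp1 had a log2 value of 0.57 (adjusted p 0.293). The members' median was -0.35 and that of all genes tested 0.22, and scaling by library size moved the latter to 0.70 and turned Gbp2, Gbp3, Gbp4, Gbp5, Gbp6, Igtp and Irgm1 to values above 0, with Gbp7 then called higher (0.73). Among genes with a mean log2 CPM above 1, 977 of 11063 were called higher and 491 lower (median -0.020), and 0 of the 8 members tested were called. Between 40119 and 41134 genes were detected in the 3 d monocyte libraries, against 24775 to 30865 in the controls, and the part of this in the values was not tested.

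Transcripts of T and NK cells fell in the monocyte libraries at 3 d. The 12 T and NK cell markers summed to 461, 716, 1941 and 1549 CPM in the controls and 32.1, 363, 70.2 and 64.8 CPM at 3 d. Gzma, the most abundant of them, averaged 471 CPM in controls and 48.3 CPM at 3 d; none of the 12 had a group mean of 0, 9 were called lower and 0 higher. Ifng itself, the cytokine gene, averaged 2.11 CPM in control monocytes and 0.296 CPM at 3 d (log2 -2.81, adjusted p 0.0280). In bulk libraries fewer cells of a type and less RNA per cell cannot be told apart, for these markers as for the GTPases. Control libraries 3 and 4, which had the highest lymphocyte sums, also had the lowest GTPase sums of the controls (527 and 569 CPM, against 817 and 744 CPM), so that a fit without them cannot tell the 2 apart. The part of these cells in the GTPase values was not tested.

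Of the pathway upstream of the GTPases, the interferon-gamma receptor and signalling genes were lower for 7 and higher for 0 of 13 in the 3 d monocytes (median log2 -0.59). Irf8 fell by 1.31 on the log2 scale (adjusted p 4.25e-04), Ifngr1 by 1.17 (adjusted p 8.06e-04) and Irf1, which binds GTPase promoters, by 1.05 (adjusted p 0.00114). Ifngr2 (-0.45) and the inhibitor Socs1 (0.74) were not called. The partner list was lower for 7 and higher for 0 of 16, led by Nlrp3 (-1.28), and the type I interferon list lower for 1 (Rsad2, -0.96) and higher for 0 of 16. Other GTPases split evenly, with 4 of 15 lower (Gvin1 -1.17, Tgtp2 -1.03, Gbp9 -0.92 and Gm5431 -0.91) and 4 higher (Gm4841 3.54, Gbp11 2.80, Gm4951 2.61 and Gbp2b 1.85). Interferon-gamma inducible genes that are not GTPases had 2 of 18 lower (Nlrc5 -0.81 and Fcgr1 -0.66) and 2 higher (Nos2 4.11 and Upp1 1.94).

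By 14 d the whole GTPase set was low in monocytes. Both families took part, the GBPs of either cluster as well as the IRG regulators and Iigp1, and no library of the 14 d group reached the lowest control or 3 d library for any member. The share of all genes tested that lay apart in this way was not computed. Gbp2 measured 21.8, 12.4, 15.2 and 28.6 CPM in the 4 libraries at 14 d, where its lowest control was 65.1 CPM. Gbp3 gave 27.2, 20.9, 21.2 and 32.5 CPM, and Gbp7 26.2, 17.9, 22.8 and 29.2 CPM. Gbp5 gave 3.99, 2.47, 1.49 and 4.51 CPM. Taken as a ratio, the gap among these GBPs was narrowest for Gbp7, whose highest 14 d library lay under its lowest control of 36.1 CPM. Gbp4 fell to 1.02, 0.789, 0.851 and 1.33 CPM. Gbp6 was nearly lost, with 3, 2, 6 and 8 counts (0.139, 0.0986, 0.319 and 0.322 CPM). Of all members Gbp6 and Gbp4 lay farthest below their controls.

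The 14 d IRG values were as clearly apart from the controls for the regulators and less so for the effector. Igtp measured 21.8, 23.7, 24.7 and 24.2 CPM at 14 d, a narrow spread. Irgm1 stood at 62.7, 62.7, 59.7 and 93.6 CPM, with library 4 above the rest. Irgm2 was at 18.3, 13.1, 12.2 and 21.2 CPM. For these regulators the lowest control (78.0, 187 and 53.4 CPM) lay well above the highest 14 d library. Iigp1 had 27, 10, 9 and 9 counts (1.25, 0.493, 0.479 and 0.363 CPM), and library 1 came close to its lowest control of 1.40 CPM.

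In the 14 d comparison with control, edgeR called 10 of the 10 members lower and 0 higher, where 5.34% of the 22353 genes tested were called lower and 3.22% higher. Gbp6 fell by 3.58 on the log2 scale, 11.99-fold (standard error 0.51, adjusted p 4.64e-04). Gbp4 fell by 3.25, 9.53-fold (standard error 0.37, adjusted p 7.60e-05). For Irgm2 the log2 value was -2.19 (4.56-fold lower, adjusted p 2.24e-04), for Gbp2 -2.08 (adjusted p 3.72e-04) and for Igtp -2.03 (adjusted p 5.25e-05). Values for Gbp5 (-1.87), Irgm1 (-1.85) and Gbp3 (-1.78) came next. Iigp1 fell by 1.69 (adjusted p 0.0401), and its call was lost when any of 9 of the 12 libraries was left out, with log2 values from -2.23 to -1.35 over all 12. With the replicate number as a block, under each of the 3 other scalings or without controls 3 and 4 together, the Iigp1 call was lost too. Gbp7 had the smallest change at -0.97 (1.96-fold lower, adjusted p 0.0118), and did not pass without 14 d library 2 (-0.85) or 3 (-0.95). The members' median was -1.95, beside 0.088 for all genes tested; 0.725% of those had a lower log2 value than Gbp6 and 9.6% a lower one than Gbp7.

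Most of the drop lay between 3 d and 14 d. Against the 3 d group, which shares the 14 d libraries with the comparison above, 10 members were called lower and 0 higher, where 34.5% of all genes tested were lower and 12% higher. The log2 values were -3.20 for Gbp4, -3.17 for Gbp6, -2.27 for Iigp1, -1.72 for Gbp5, -1.61 for Gbp2, -1.57 for Igtp, -1.46 for Irgm1, -1.46 for Gbp3, -1.31 for Irgm2 and -1.21 for Gbp7, with adjusted p from 2.01e-04 (Gbp4) to 0.00306 (Iigp1). The median of all genes tested was -0.26 and that of the members -1.59, and changes of this size were common in this fit: 11.5% of the genes tested had a lower log2 value than Gbp4, 35.5% than Gbp2, 38.4% than Irgm2 and 39.2% than Gbp7. They were less so among genes with a mean log2 CPM above 1, where 1187 of 11063 were called lower and 370 higher (median -0.0010). All 8 members tested there were called lower. T and NK cell markers were lower for 2 and higher for 0 of 12 in this comparison, their sum going from 32.1 to 363 CPM at 3 d to 53.6, 63.3, 35.8 and 52.3 CPM at 14 d, and Ifng was at 0.296 and 0.307 CPM (log2 0.025). Alveolar macrophage markers were higher for 4 and lower for 1 of 9 at 14 d against 3 d, neutrophil markers higher for 2 and lower for 0 of 8, monocyte markers higher for 2 and lower for 2 of 6, and epithelial markers higher for 1 and lower for 2 of 7. Lower markers prevailed for endothelial cells (4 of 6, 0 higher), dendritic cells (3 of 6, 1 higher), fibroblasts (2 of 5, 0 higher) and B cells (1 of 5, 0 higher). Genes detected returned to 24829 to 32492 in the 14 d monocyte libraries.

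**Figure D2:**
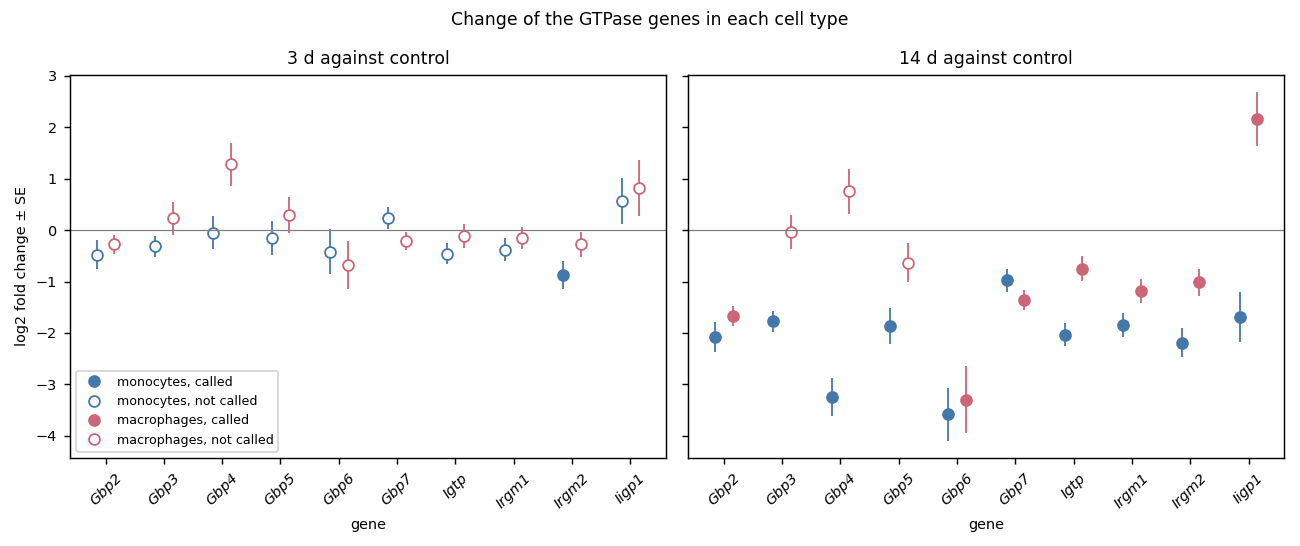
Log2 fold change of the 10 GTPase genes against control at 3 d and at 14 d in monocytes (blue) and macrophages (red), with bars of 1 standard error either way; filled points were called and open ones were not. At 14 d all 10 genes lie below 0 in monocytes, while Iigp1 (called) and Gbp4 (not called) are above 0 in macrophages.

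Around the 10 genes, type I interferon genes also fell in the 14 d monocytes. All 16 of that list were lower against control (median log2 -2.81) and all 16 against 3 d (median -2.29), with Ifit3 at -3.30, Ifit2 at -3.17 and Rtp4 at -3.12 against control. The further GTPases were lower for 11 and higher for 0 of 15 (median -2.07, Tgtp2 -3.51), and against 3 d for 14 and 0 of 15. Interferon-gamma inducible genes that are not GTPases were lower for 7 and higher for 1 of 18 (Upp1, 1.24), with a median of -0.52. Signalling genes were lower for 5 and higher for 2 of 13, where Irf1 fell by 1.80 (adjusted p 5.98e-05) and Irf8 by 1.07 (adjusted p 0.00183), Batf2 (-1.37), Irf9 (-1.06) and Irf2 (-0.67) were lower too, and Socs3 (1.89) and Jak2 (1.28) rose. Ifng (-2.78, adjusted p 0.108), Ifngr1 (-0.65, adjusted p 0.0529), Ifngr2 (0.13) and Socs1 (1.43) were not called. Partners were lower for 5 of 16, namely Rnf213 (-1.35), Trim21 (-1.25), Gsdmd (-1.01), Aim2 (-0.93) and Nlrp3 (-0.85), and higher for 1, Pycard (0.62).

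Cell type markers in the monocyte libraries also moved, beside the GTPases. At 14 d the T and NK cell markers were lower than control for 9 and higher for 0 of 12, and Gzma averaged 13.7 CPM. At 3 d and 14 d the B cell markers were each time lower for 4 of 5 (higher for 1 and 0), the monocyte markers lower for 2 and then 3 of 6 (higher for 0 and 0), and the dendritic cell markers lower for 2 and then 1 of 6 (higher for 0 and 1). Alveolar macrophage markers were lower for 5 of 9 at 3 d and lower for 1 and higher for 1 at 14 d, with Chil3 averaging 10294 CPM in controls, 7134 CPM at 3 d and 18637 CPM at 14 d. Neutrophil markers rose for 2 of 8 at 3 d and 1 of 8 at 14 d and fell for 0, their sum going from 289.8, 203, 296 and 292 CPM in controls to 1521, 1141, 791 and 690.1 CPM at 14 d. Epithelial markers were lower for 2 and higher for 2 of 7 at 3 d and lower for 2 and higher for 1 at 14 d, endothelial markers lower for 1 and then 3 of 6 (higher for 2 and 0), and fibroblast markers higher for 2 and then 0 of 5 (lower for 0 and 0). Their part in the GTPase changes was not tested.

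In alveolar macrophages 3 d after tamoxifen most GTPase genes overlapped with the controls. Gbp2 stood at 27.7, 30.5, 35.1 and 24.5 CPM in the 4 controls and 21.9, 28.9 and 22.1 CPM in the 3 libraries at 3 d. Irgm1 had 22.9, 23.9, 23.7 and 22.2 CPM in controls and 18.3, 22.04 and 22.1 CPM at 3 d, 2 of them just below the lowest control and library 1 further down. Gbp4 had 1.92, 2.13, 1.90 and 0.797 CPM in controls and 3.08, 2.56 and 6.78 CPM at 3 d, all above the highest control. The remaining 8 members overlapped between the groups, and Gbp4 and Irgm1 were the 2 that did not. How large a share of all genes tested did not overlap was not computed.

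For these 3 d macrophages edgeR called 0 of the 10 members, where 1.27% of the 20944 genes tested were called in either direction; DESeq2 also called 0, and 1 member, Gbp4, had an unadjusted p under 0.05. Gbp4 had a log2 value of 1.28 (standard error 0.42, adjusted p 0.156), and without 3 d library 2 it passed at 1.57 (adjusted p 0.0382). Log2 values of the others ran from -0.68 for Gbp6 to 0.82 for Iigp1. The median was -0.14 for the members and -0.0067 for all genes tested. Few list genes passed. By edgeR 0 were called in either direction among other GTPases (14 tested, log2 -1.78 to 2.59) and signalling genes (12, -0.40 to 1.85). The same held for type I interferon genes (16, -0.71 to 1.17) and partners (16, -0.38 to 0.78). Of the 17 interferon-gamma genes that are not GTPases, 1 was higher (Cd40, 1.80) and 0 lower. Irf1 (-0.28), Irf8 (-0.12), Ifngr1 (-0.40), Ifngr2 (0.16) and Socs1 (1.56) were among the genes not called, and Ifng, with 0 to 6 counts per macrophage library, was not tested. Called cell type markers were 1 of 6 neutrophil markers and 1 of 6 endothelial markers, both higher, and 1 higher and 1 lower of 7 epithelial markers.

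At 14 d macrophage GTPases were called in both directions, in a comparison with control that called 13051 of the 20944 genes tested. Gbp2, Gbp6, Gbp7 and the 3 IRG regulators were lower than in controls, Iigp1 was higher, and Gbp3, Gbp4 and Gbp5 were not called. Gbp2 measured 9.65, 10.96 and 6.93 CPM at 14 d, each below its lowest control of 24.5 CPM. Gbp7 measured 42.9, 35.4, 41.4 and 41.6 CPM in controls, 30.0, 42.7 and 31.4 CPM at 3 d and 17.1, 18.5 and 11.3 CPM at 14 d. Gbp6 measured 2.05, 3.73, 2.43 and 1.59 CPM in controls, 1.22, 1.71 and 1.67 CPM at 3 d and then 3, 2 and 0 counts (0.432, 0.252 and 0 CPM) at 14 d. For these 3 genes the 14 d libraries lay below every other macrophage library, with library 3 the lowest each time.

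The IRG regulators were closer to their controls. Irgm1 stood at 12.1, 12.6 and 5.58 CPM at 14 d, against at least 22.2 CPM in each control. Igtp measured 12.5, 13.7, 20.2 and 11.7 CPM in controls, 11.6, 15.5 and 13.03 CPM at 3 d and 10.8, 6.81 and 8.28 CPM at 14 d. Irgm2 measured 10.3, 11.6, 12.98 and 7.17 CPM, 9.17, 9.31 and 7.51 CPM and 4.61, 4.16 and 6.93 CPM in the same groups. The highest 14 d library lay just under the lowest control for Igtp and for Irgm2. Iigp1 ran the other way, from 0.753, 0.380, 0.524 and 0.332 CPM (11, 5, 8 and 5 counts) in controls and 0.573, 1.16 and 0.938 CPM (8, 15 and 9 counts) at 3 d to 3.02, 2.52 and 1.18 CPM (21, 20 and 7 counts) at 14 d. Library 3 of Iigp1 at 14 d was only just above 3 d library 2 (1.18 against 1.16 CPM), and with scaling factors set over all 22 samples it was below it (0.867 against 0.986 CPM).

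Gbp3 overlapped between all 3 groups of macrophages, Gbp5 between 14 d and control but not between 14 d and 3 d, and Gbp4 between 14 d and 3 d only. Gbp3 read 4.25, 11.6, 8.45 and 4.85 CPM in control macrophages, 6.45, 7.76 and 11.5 CPM at 3 d and 7.63, 7.31 and 6.26 CPM at 14 d. Gbp5 read 3.22, 5.02, 5.57 and 4.18 CPM, 3.87, 5.20 and 7.51 CPM and 3.60, 3.78 and 1.18 CPM in those groups, the 14 d values all being under the lowest at 3 d and library 3 far under the rest. Gbp4 read 2.74, 3.53 and 2.20 CPM at 14 d, above its highest control of 2.13 CPM, with 2 of the 3 libraries inside its 3 d range. These relations hung on the scaling: with factors set over all 22 samples, Gbp4 at 14 d overlapped its controls (library 3 at 1.61 CPM, controls up to 1.79 CPM), Gbp3 at 14 d lay below 3 d, and Gbp5 at 14 d lay below control.

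By edgeR 6 of the 10 members were called lower and 1 higher in macrophages at 14 d, where 22.9% of the 20944 genes tested were called lower and 39.4% higher. Gbp2 fell by 1.67 on the log2 scale (3.18-fold, standard error 0.20, adjusted p 9.21e-06), Gbp7 by 1.36 (2.56-fold, adjusted p 3.00e-05) and Irgm1 by 1.18 (2.27-fold, adjusted p 3.51e-04). The fitted log2 value of Gbp6 was -3.30 (adjusted p 4.47e-04), and -4.05 without 14 d library 1. Irgm2 had -1.02 (adjusted p 0.00342), which passed in 17 of 21 alternatives and not under library size scaling (-0.57). Igtp had -0.75 (adjusted p 0.0116), which passed in 14 of 21 and neither by DESeq2 (-0.58) nor without control library 3 (-0.54). Iigp1 rose 4.46-fold (log2 2.16, standard error 0.53, adjusted p 0.00216). Of the genes tested, 70% had a lower log2 value than Iigp1. For the 6 members called lower this share ran from 0.21% (Gbp6) to 18.8% (Igtp). Not called were Gbp3 (-0.037), Gbp4 (0.75, adjusted p 0.138) and Gbp5 (-0.63, adjusted p 0.153), though Gbp4 was called higher in 5 of 21 alternatives, under library size (1.18) and upper quartile scaling (1.10), with factors from high genes (1.29), under a stricter filter (1.12) and in thinned libraries (1.64). The median was -0.88 for the members and 0.18 for all genes tested.

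Against the 3 d macrophages, with the 14 d libraries shared, 6 members were lower and 1 higher, where 20% of the genes tested were lower and 36.3% higher. Called log2 values were -2.63 for Gbp6, -1.39 for Gbp2, -1.14 for Gbp7, -1.03 for Irgm1, -0.74 for Irgm2, -0.64 for Igtp and 1.34 for Iigp1. Those of Irgm2 (adjusted p 0.0323), Igtp (0.0410) and Iigp1 (0.0477) were near the threshold, and each was lost when certain libraries were left out, for Iigp1 any of 7 of the 10. Over all alternatives Irgm2 passed in 12 of 21 (log2 -1.04 to -0.22), Igtp in 10 of 21 (-0.88 to -0.14) and Iigp1 in 10 of 19 (0.94 to 1.80). With the replicate number as a block 5 members were lower and 0 higher, the calls of Igtp and Iigp1 being lost. Gbp3 (-0.27), Gbp4 (-0.53) and Gbp5 (-0.92, adjusted p 0.0591) were not called, and Gbp5 passed without control library 4 (-1.01), 3 d library 1 (-1.28), 3 d library 2 (-1.18) or 14 d library 2 (-1.19). Among cell type markers in this comparison, fibroblast markers were higher for 4 and lower for 0 of 5 (median log2 3.16), neutrophil markers higher for 4 and lower for 1 of 6 (median 4.39), B cell markers lower for 5 of 5 and alveolar macrophage markers lower for 5 and higher for 0 of 9. Monocyte markers were higher for 2 and lower for 1 of 6, T and NK cell markers higher for 1 and lower for 2 of 11, dendritic cell markers higher for 1 and lower for 0 of 6, epithelial markers higher for 3 and lower for 3 of 7, and endothelial markers higher for 1 and lower for 1 of 6.

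Around the members in the 14 d macrophages, the genes that serve interferon-gamma signalling fell more than they rose. The signalling list was lower for 6 and higher for 3 of 12 (median log2 -0.59). Ifngr1 fell by 1.07 (adjusted p 6.01e-04), Ifngr2 by 0.60 (adjusted p 0.00126), Irf1 by 0.62 (adjusted p 0.00602) and Irf8 by 0.89 (adjusted p 0.00291). The inhibitors Socs1 (2.61, adjusted p 8.82e-04) and Socs3 (2.00) rose, as did Jak2 (1.17). The partners were lower for 10 and higher for 0 of 16 (median -0.78), with Aim2 at -1.45 and Trim21 at -1.26. The other GTPases were lower for 4 of 14 (Gvin1 -3.24, Gbp8 -2.94, Gm4951 -2.07 and Ifi47 -1.25) and higher for 3 (F830016B08Rik 2.35, Mx2 1.86 and Gbp11 1.68), with a median of -0.28. Of the 17 interferon-gamma genes that are not GTPases 5 were lower (Cd274 -1.98, Fcgr1 -1.47, Psmb10 -1.10, Psmb9 -0.98 and Psmb8 -0.81) and 4 higher (Upp1 6.00, Nos2 4.17, Acod1 3.12 and Cd40 1.24). Type I interferon genes were lower for 1 of 16 (Zbp1 -0.74) and higher for 4 (Ifi44 3.27, Oasl2 2.39, Usp18 1.80 and Oasl1 1.51), with a median of 0.44. Ifng averaged 0.139, 0.215 and 0.444 CPM in control, 3 d and 14 d macrophages.

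Markers of several other cell types rose in the 14 d macrophage libraries. Neutrophil markers were higher for 5 and lower for 1 of 6, summing to 1164, 1447 and 361 CPM at 14 d against 61.1, 206, 120.3 and 83.7 CPM in controls, with S100a9 the most abundant at 444 CPM. All 5 fibroblast markers were higher, summing to 209, 151 and 331 CPM against 22.1, 16.8, 16.2 and 16.7 CPM, and Col3a1 averaged 182 CPM against 12.3 CPM. Alveolar macrophage markers were lower for 6 and higher for 0 of 9, monocyte markers higher for 2 and lower for 0 of 6, dendritic cell markers higher for 3 and lower for 0 of 6, endothelial markers higher for 4 and lower for 1 of 6, epithelial markers higher for 3 and lower for 3 of 7, T and NK cell markers higher for 2 and lower for 2 of 11, and 0 of the 5 B cell markers were called by edgeR. T and NK cell markers summed to 402, 381, 437 and 401 CPM in control macrophages and 122, 140.4 and 104 CPM at 14 d, most of it Cd2 (383 and 91.3 CPM). No list had a gene with a group mean of 0. Their part in the changes of Iigp1 and the other members was not tested.

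**Figure D3:**
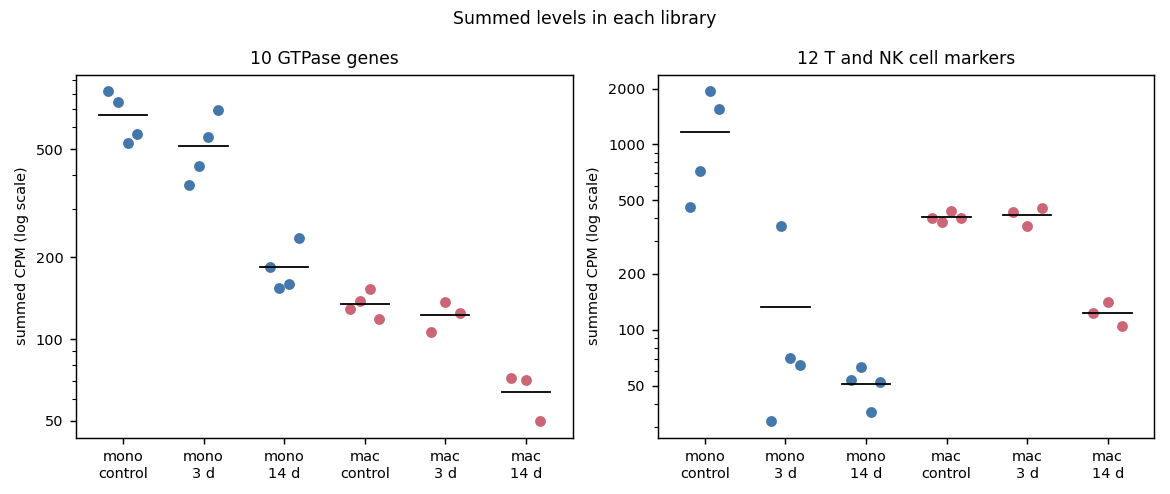
Summed CPM per library (log axes) of the 10 GTPase genes, left, and of the 12 T and NK cell markers, right, in the 6 groups, with 1 point per library and a bar at the group mean. The GTPase sum is lowest at 14 d in each cell type, whereas in monocytes the lymphocyte sum is already low at 3 d.

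Summed over the 10 genes, the GTPase signal of monocytes was 817, 744, 527 and 569 CPM in controls, 369, 431, 555 and 695 CPM at 3 d and 184, 155, 159 and 236 CPM at 14 d. In macrophages the sum was 128, 138, 152 and 119 CPM in controls, 106, 137 and 125 CPM at 3 d and 71.7, 70.4 and 49.9 CPM at 14 d. The 14 d libraries had the lowest sums of each cell type, without overlap, while control and 3 d sums overlapped in both.

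Whether a GTPase changed differently in the cell types was tested as the macrophage log2 change minus the monocyte one, each against its own controls. Positive values mean a change that was less negative, or more positive, in macrophages. At 3 d edgeR called 0 of the 10 members, where 18.7% of the 26692 genes tested were called in either direction; DESeq2 called 0, and Gbp4 (1.16, unadjusted p 0.0375 by edgeR) and Gbp7 (-0.64, unadjusted p 0.0435 by edgeR) had an unadjusted p under 0.05. The members' median was 0.11, beside -0.63 for all genes tested. Signalling genes were higher for 3 of 13 (Irf8 1.00, Jak1 0.80 and Irf2 0.74) and lower for 0. Other GTPases were higher for 3 of 16 (Tgtp1 2.86, Tgtp2 2.34 and Gbp9 1.48) and lower for 2 (Gm4841 -6.30 and Gm4951 -3.90). Markers called higher at 3 d were 6 of 12 for T and NK cells, 4 of 5 for B cells, 4 of 6 for monocytes, 2 of 7 for epithelial cells and 1 each for alveolar macrophages, dendritic and endothelial cells, with 0 lower; fibroblast markers were lower for 2 of 5, and neutrophil markers were not called.

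At 14 d the difference was called for 4 members, in a test that called 9829 of the 26692 genes tested. Gbp4, Iigp1, Gbp3 and Igtp were called higher in this test and 0 members lower, where 16.9% of the genes tested were called higher and 19.9% lower. Gbp4 had a difference of 3.66 (standard error 0.57, adjusted p 3.98e-05), lower in monocytes and not called in macrophages. Iigp1 had 3.50 (standard error 0.71, adjusted p 5.57e-04), and it was the single member called in opposite directions in the cell types. For Gbp3 the difference was 1.40 (standard error 0.39, adjusted p 0.00695) and for Igtp 0.93 (standard error 0.33, adjusted p 0.0280). Of the genes tested, 88% had a lower value than Gbp4, 86.5% than Iigp1, 60.7% than Gbp3 and 55.3% than Igtp. The Igtp call was lost without control macrophage library 1 (0.86) or 4 (0.85), 14 d macrophage library 1 (0.72) or 3 (0.93), or control monocyte library 2 (0.81). It was also lost with the replicate number as a block. Gbp2 (0.056), Gbp6 (-0.064), Irgm1 (0.31), Irgm2 (0.83, adjusted p 0.0971), Gbp5 (0.87, adjusted p 0.191) and Gbp7 (-0.74, adjusted p 0.0591) were not called, and Gbp7 passed as lower without control macrophage library 2 (-0.81), control monocyte library 1 (-0.85) or 14 d monocyte library 2 (-0.85). Other settings called further members higher: Irgm2 and Gbp5 passed by DESeq2 (1.28 and 1.30), under the stricter filter (1.44 and 1.48) and under library size scaling (1.49 and 1.53), upper quartile scaling (1.55 and 1.59) and factors from high genes (1.62 and 1.64), and Irgm1 under that filter (0.91) and those scalings (0.97, 1.02 and 1.08). The members' median was 0.85 and that of all genes tested 0.48.

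In the same 14 d test the lists differed in their counts of called genes, though no test compared the lists. Type I interferon genes were higher for 16 of 16 (median 3.00, Oasl2 5.01, Usp18 4.30), and other GTPases higher for 7 and lower for 1 of 16 (Gm4951, -3.49), with a median of 1.72. Interferon-gamma genes that are not GTPases had a median of 0.51, near that of all genes, and were higher for 6 and lower for 3 of 19 (Cd274 -2.48, Fcgr1 -1.10 and Psmb10 -1.08). Signalling genes were higher for 3 of 13, Irf1 (0.83, adjusted p 0.0205), Batf2 (1.28) and Ifng (4.13, from at most 6 counts in a macrophage library), and lower for 1, Ptpn2 (-1.06), with a median of -0.22. Partners were lower for 9 and higher for 0 of 16 (median -0.82, Atg3 -1.82, Map1lc3b -1.42, Atg5 -1.42). Cell type markers moved in the 14 d test as well: T and NK cell markers were higher for 7 and lower for 0 of 12 (median 3.81), endothelial markers higher for 5 of 6, monocyte markers for 3 of 6, dendritic cell markers for 2 of 6, epithelial markers for 2 of 7, fibroblast markers for 2 of 5 and B cell markers for 1 of 5 (0 lower in each), neutrophil markers higher for 2 and lower for 1 of 8, and alveolar macrophage markers lower for 3 and higher for 0 of 9. Their part in the differences was not tested.

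Over the 6 groups the members followed a few orders, read from group means of CPM with scaling factors set over all 22 samples. Monocyte controls and 3 d monocytes, overlapping each other, held the top 2 places for each of the 10 genes. For Irgm1 the order went on with 14 d monocytes (81.2 CPM), control macrophages (20.2), 3 d macrophages (17.9) and 14 d macrophages (7.14), with no overlap between neighbours after the top 2 (282 and 242). Igtp (109, 88.2, 27.5, 12.7, 11.5 and 6.16 CPM) and Irgm2 (83.1, 50.5, 18.9, 9.18, 7.45 and 3.75 CPM) kept that order too, except that control and 3 d macrophages overlapped. Gbp3 put 14 d monocytes (29.7 CPM) between the upper monocyte groups (98.3 and 88.4) and the macrophages, where 3 d (7.38), control (6.33) and 14 d (5.03) each overlapped the next.

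In the other GBPs the 14 d monocytes sank to macrophage levels. Gbp2 ran from control monocytes (93.2 CPM) and 3 d monocytes (74.7) to control macrophages (25.7), 14 d monocytes (22.8) and 3 d macrophages (20.9), which overlapped, and 14 d macrophages (6.51), which stood alone. Gbp7 had 3 d (70.0) before control monocytes (53.2), then control macrophages (35.2), 3 d macrophages (29.8) and 14 d monocytes (28.03), overlapping in turn, and 14 d macrophages apart (11.1). Gbp4 placed 3 d monocytes (11.7) and control monocytes (10.9) above an overlapping run of 3 d (3.58), 14 d (2.00) and control macrophages (1.47) and 14 d monocytes (1.16). The order of Gbp5 was 3 d (12.9) and control monocytes (12.8), then 3 d (4.76) and control macrophages (3.94), 14 d monocytes (3.64) and 14 d macrophages (2.02), each overlapping the next from the third place on.

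Gbp6 and Iigp1 broke the pattern of the rest. Gbp6 overlapped through control monocytes (3.06 CPM), 3 d monocytes (2.55), control macrophages (2.13) and 3 d macrophages (1.32), with both 14 d groups (0.256 in monocytes and 0.161 in macrophages) apart below. Iigp1 overlapped between every pair of neighbours, from 3 d (3.93) and control monocytes (2.36) to 14 d (1.59) and 3 d macrophages (0.766), 14 d monocytes (0.757) and control macrophages (0.434).

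On the GRCm38 build the members sit in clusters. Gbp5 (ENSMUSG00000105504, 142493978 to 142522344), Gbp7 (ENSMUSG00000040253, 142530342 to 142550149), Gbp3 (ENSMUSG00000028268, 142560026 to 142573209) and Gbp2 (ENSMUSG00000028270, 142620602 to 142638008) lie on chromosome 3. Gbp4 (ENSMUSG00000079363, 105115767 to 105139586) and Gbp6 (ENSMUSG00000104713, 105270702 to 105293698) lie on chromosome 5. Irgm1 (ENSMUSG00000046879, 48861968 to 48871683), Igtp (ENSMUSG00000078853, 58199556 to 58207591) and Irgm2 (ENSMUSG00000069874, 58199618 to 58222782) lie on chromosome 11, and Iigp1 (ENSMUSG00000054072, 60376027 to 60392634) on chromosome 18. Exons overlap in places, so reads there belong to no single gene: Igtp and Irgm2 share 162 exonic bases, Gbp6 shares 1726 of its 5954 with Gm43302, Gbp7 shares 637 with the pseudogene Gm43802, Gbp4 shares 60 with Gbp9 and 61 with Gbp8, and Gbp2 shares 24 with Mir6381 on the other strand.

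How tightly the members moved together differed by cell type, as a description over libraries pooled across groups. In the 12 monocyte libraries the 45 pairs of members had Pearson correlations of log2 CPM from 0.727 to 0.986, with a median of 0.926. In the 10 macrophage libraries they ran from -0.798 to 0.973, with a median of 0.479. The genes most like the members' mean in monocytes, among 8075 genes, were Oas3 (0.986), Ifi206 (0.986), Gm12250 (0.985), Irf7 (0.985) and Ifi211 (0.984). In macrophages, among 9644 genes, they were Cyp20a1 (0.966), H2-M3 (0.965), H2-Q7 (0.960), Clec1b (0.954) and Tmem50b (0.948). Over all 22 libraries the gene most like each member was Rtp4 for Gbp3 (0.990), Pml for Gbp4 (0.876), Ddx58 for Gbp5 (0.931), Rab19 for Gbp6 (0.887), Ifih1 for Gbp7 (0.958), Ifi47 for Igtp (0.985), Ifi47 for Irgm1 (0.990), Igtp for Irgm2 (0.981) and Sfi1 for Iigp1 (0.799).

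Promoters of the members that fell together in monocytes were searched for the letters of interferon response sequences. Of the RefSeq promoters (GRCm38.p6, 300 bases, 250 before the start and 50 after it), 8 entries for 7 of the members were searched. The letters TTCNNNGAA of the gamma-activated site, searched on both strands, were in 8.3% of all 32841 promoters of that length, and those of the interferon-stimulated response element core, GAAANNGAA on either strand, in 8.56%, with both in 1.07%. Of the 8 entries, 4 held the gamma-activated letters, 7 the response element core and 4 both. The entries with both belong to Igtp (chr11:58199306-58199605), Irgm2 (chr11:58214727-58215026), Gbp5 (chr3:142496684-142496983) and Gbp7 (chr3:142530086-142530385), all on the plus strand, and they are shown because they carry both sets of letters. These 4 genes fell in the 14 d monocytes, but so did all 10 members, and the fall does not set them apart. The entries of Gbp2, Gbp3 and Irgm1 held no gamma-activated letters. No entry for Gbp4, Gbp6 or Iigp1 was among those searched, so nothing is drawn about their promoters. Capitals mark the matches; a match is a description, not a site or a cause. In Igtp the matches begin at bases -45 and -34 from the start, in Irgm2 at -75 and -64, in Gbp5 at -245, -164 and -52, and in Gbp7 at -106, -87 and -52.
Igtp: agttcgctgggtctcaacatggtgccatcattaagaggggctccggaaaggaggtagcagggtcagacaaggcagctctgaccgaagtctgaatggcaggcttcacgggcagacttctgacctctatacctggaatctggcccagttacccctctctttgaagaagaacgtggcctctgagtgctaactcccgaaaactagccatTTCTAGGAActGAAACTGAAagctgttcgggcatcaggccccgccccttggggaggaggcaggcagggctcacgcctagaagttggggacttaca
Irgm2: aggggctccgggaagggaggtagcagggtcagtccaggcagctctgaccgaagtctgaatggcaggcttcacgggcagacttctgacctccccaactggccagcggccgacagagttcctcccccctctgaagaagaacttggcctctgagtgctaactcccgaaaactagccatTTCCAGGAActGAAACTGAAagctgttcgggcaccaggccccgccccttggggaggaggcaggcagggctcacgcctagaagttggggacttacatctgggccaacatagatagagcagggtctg
Gbp5: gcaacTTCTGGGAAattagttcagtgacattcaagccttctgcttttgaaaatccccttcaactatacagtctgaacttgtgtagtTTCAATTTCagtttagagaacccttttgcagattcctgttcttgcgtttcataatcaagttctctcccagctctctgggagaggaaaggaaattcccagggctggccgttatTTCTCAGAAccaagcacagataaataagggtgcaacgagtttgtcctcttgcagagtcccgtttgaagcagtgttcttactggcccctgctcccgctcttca
Gbp7: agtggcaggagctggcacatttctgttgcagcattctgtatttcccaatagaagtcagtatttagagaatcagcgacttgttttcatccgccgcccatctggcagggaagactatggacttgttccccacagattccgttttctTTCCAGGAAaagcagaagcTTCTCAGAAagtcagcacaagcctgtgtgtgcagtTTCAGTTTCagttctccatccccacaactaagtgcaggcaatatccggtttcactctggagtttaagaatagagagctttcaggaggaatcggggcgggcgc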

How the data were processed

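Poly(A) RNA of 12 monocyte and 10 alveolar macrophage samples was sequenced as paired ends. The deposited tables, 1 per cell type, hold raw gene counts made by the authors, 55421 genes for monocytes and 31134 for macrophages; the submitters' processing notes name STAR 2.7.2c and 2.7.3a, featureCounts 1.6.3, DESeq2 1.26.0 and 1.28.1 and the GRCm38 (mm10) build. The strand of counting is not stated, so reads of overlapping or antisense genes cannot be assigned. The tables were processed separately, so cell type and table cannot be told apart.

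Counts were fitted with the quasi-likelihood test of edgeR 4.0.16, which runs on limma 3.58.1 and R 4.3.3, 2-sided, after filterByExpr and TMM scaling, with p adjusted by Benjamini-Hochberg over all genes tested. The 3 groups of a cell type shared a fit, and a fit of all 22 samples over shared genes tested differences between the cell types. CPM used TMM factors set within each cell type, and GENCODE M21 exon lengths gave CPM per kb. Median depth was 21525109.5 counts for monocytes and 14010248 for macrophages. The p-values measure the spread between these samples only, as labels do not say that they came from separate animals. The main fits use no pairs. Control monocytes and control macrophages of the same number correlated in their deviations from the group means (0.148 to 0.182, all 4 over 0.1; -0.196 to 0.0503 for other numbers), which pairs the controls by the data and not by the labels; at 3 d 2 of 3 such pairs were over 0.1 and at 14 d 0 of 3. Comparisons of 3 d and of 14 d with control share their controls.

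The members and lists were chosen with earlier results of these data known. Lists cover other interferon-inducible GTPases, interferon-gamma receptor and signalling genes, interferon-gamma inducible genes that are not GTPases, type I interferon inducible genes, conjugation, ubiquitin and inflammasome partners, and markers of monocytes, alveolar macrophages, T and NK cells, B cells, neutrophils, dendritic, epithelial, endothelial and fibroblast cells. Named are all members, up to 4 called list genes per direction and comparison with the largest change and a mean log2 CPM above 3, and Ifng, Ifngr1, Ifngr2, Irf1, Irf8 and Socs1; a list's most abundant gene is named for its level, and further list genes, named where a count was 5 or fewer, were chosen after their values were seen. Library sums were compared by 2-sided exact permutation tests, whose smallest possible p was 0.0286 for 4 against 4 libraries and 0.0571 for 3 against 4, so that none of the 44 comparisons could pass 0.05 after adjustment and nothing is drawn from them. Alternatives were DESeq2 1.42.0, 3 other scalings, 2 other filters, fits restricted to a pair of groups, the replicate number as a block, a dispersion estimate without robustness, no fold threshold, and each library left out in turn; 3 more, controls 3 and 4 left out together, macrophage libraries thinned to the smallest total and a block for each time and number shared by the cell types, were chosen after seeing the data.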

Additional observations from a re-analysis of the deposited data

Results flagged for a closer look

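In 2 of the 40 groups of 4 libraries checked, a library stood far from the other 3, where chance gives about 1 in 20 groups. Iigp1 measured 1.25 CPM in library 1 of the 14 d monocytes and 0.363 to 0.493 CPM in the other 3. Irgm1 measured 93.6 CPM in library 4 of the 14 d monocytes and 59.7 to 62.7 CPM in the other 3. The log2 change at 14 d differed between macrophages and monocytes by the test of that difference for Gbp3 (1.40), Gbp4 (3.66), Igtp (0.93) and Iigp1 (3.50). That test called 9829 of the 26692 genes tested. The causes of these flagged results were not tested.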

How the results depend on the processing

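Scaling moved the median of all genes, and values near 0 turned with it. In monocytes at 3 d that median went from 0.22 to 0.70 under library size scaling, 0.62 under upper quartile scaling and 0.74 when TMM factors came from high genes only (mean log2 CPM over 5), and genes called higher and lower went from 8215 and 3223 to 9743 and 499, 9276 and 681, and 9887 and 438. Under these scalings, in that order, the log2 values at 3 d were 0.18, 0.087 and 0.22 for Gbp3, 0.44, 0.36 and 0.49 for Gbp4, 0.34, 0.23 and 0.38 for Gbp5, 0.066, 0.0024 and 0.11 for Gbp6 and 0.11, 0.013 and 0.15 for Irgm1. Gbp2 was 0.018 and 0.057, and Igtp 0.035 and 0.072, under the first and the last. A stricter filter (mean log2 CPM over 1) gave Gbp3 0.074, Gbp4 0.35, Gbp5 0.24 and Irgm1 0.0043. Gbp4 was also 0.086 by DESeq2 and 0.017 with only control and 3 d fitted, and Gbp7 -0.032 with no filter and -0.076 without controls 3 and 4. The count called at 3 d, 1 member, was 0 under upper quartile scaling and the stricter filter, 4 with no filter, 3 without controls 3 and 4, and 0 to 3 with 1 library left out (0 without 3 d library 1, 2 or 3 and 3 without library 4). With 1 library left out, Gbp4 ran from -0.23 to 0.25 (above 0 without control 2 or 3 d library 1 or 2) and Gbp5 from -0.29 to 0.062 (above 0 without control 1 or 3 d library 1). At 14 d against control 8 members kept their call in every alternative that tested them, the exceptions being Gbp7 and Iigp1. Iigp1 was lost under each of the 3 scalings, without control 1 (-1.35), 3 (-1.77) or 4 (-1.76), 3 d library 2 (-1.70), 3 (-1.70) or 4 (-1.69), or 14 d library 2 (-1.58), 3 (-1.59) or 4 (-1.51). Iigp1 was also lost with the replicate block and without controls 3 and 4 together. Calls of all genes there went from 720 higher and 1194 lower to 873 and 922 under library size scaling, as the median went from 0.088 to 0.19. Against 3 d all 10 members kept their call, while the median of all genes went from -0.26 to -0.64, -0.68 and -0.72 and the calls from 2677 higher and 7718 lower to 560 and 9138, 556 and 9157, and 432 and 9567. In macrophages at 14 d against control the median went from 0.18 to 0.61, 0.53 and 0.73 and the calls from 8258 higher and 4793 lower to 9786 and 1789, 9392 and 2229, and 10374 and 1285. Gbp3 was then 0.40, 0.31 and 0.51, and it was 0.13 by DESeq2, 0.33 under the stricter filter, 0.017 with only control and 14 d fitted, 0.26 in thinned libraries and -0.25 to 0.28 with 1 library left out (above 0 without control 2 or 3). The count of 7 was 4 under the stricter filter and in thinned libraries, each time 3 of the 7 and Gbp4. Against 3 d the median went from 0.16 to 0.59, 0.46 and 0.65, the calls from 7611 higher and 4195 lower to 9243 and 1318, 8640 and 1973, and 9613 and 1123, and Gbp3 to 0.16, 0.033 and 0.21, with 0.075 under the stricter filter and 0.13 in thinned libraries. The count of 7 was 4 with factors from high genes and with only 3 d and 14 d fitted, and 3 under the stricter filter and in thinned libraries. Leaving out 1 library ended the call of Igtp (control 1 or 2, both -0.63, or 14 d library 2, -0.51), Irgm2 (14 d library 1, -0.70, or 2, -0.62) and Iigp1 (control 1, 1.34, or 4, 1.25, 3 d library 1, 0.94, 2, 1.36, or 3, 1.20, and 14 d library 1, 1.03, or 2, 1.22), and took Gbp6 to -3.37 without 14 d library 1. At 3 d the macrophage count was 0 to 1 with 1 library left out, and Gbp3 ran from -0.012 (without 3 d library 3) to 0.54 and Igtp from -0.20 to 0.084 (without control 3). For the difference between cell types at 3 d the median went from -0.63 to -0.91, -0.70 and -0.93, and the calls from 936 higher and 4059 lower to 412 and 5318 under library size scaling and 394 and 5423 with factors from high genes. These 2 scalings gave Gbp2 -0.28 and -0.30, Gbp5 -0.043 and -0.061, Igtp -0.14 and -0.15, Irgm1 -0.25 and -0.27 and Iigp1 -0.22 and -0.24, and called 1 member in place of 0. Upper quartile scaling gave Gbp2 -0.038 and Irgm1 -0.0100, and the stricter filter Gbp2 -0.16, Igtp -0.018 and Irgm1 -0.14. With 1 library left out, Gbp2 ran from -0.15 to 0.35, Irgm1 from -0.083 to 0.27 and Iigp1 from -0.26 to 0.49. At 14 d the difference had a median of all genes of 0.48, moved to 1.16, 1.13 and 1.27, and calls of 4511 higher and 5318 lower, moved to 6874 and 1561, 6757 and 1581, and 7587 and 1233. The count of 4 became 7 under each scaling, with Gbp5, Irgm1 and Irgm2 added. Gbp6 was 0.33 by DESeq2, 0.57, 0.61 and 0.67 under the scalings and -0.80 to 0.40 with 1 library left out, Gbp7 0.045 with factors from high genes, and Gbp2 -0.11 to 0.40 with 1 library left out. Between the control groups the median went from 0.048 to 0.47, -0.28 and 0.38 and the calls from 6542 higher and 5245 lower to 8420 and 3414, 5451 and 6997, and 7939 and 3759. Within a cell type, replicate numbers did not meet the rule for pairs (every correlation over 0.1): 8 of 21 pairs with the same number correlated above 0.1, from -0.520 to 0.669, and other pairs ran from -0.654 to 0.672; between control and 14 d monocytes 3 of 4 did (0.669, 0.425 and 0.548; -0.0425 for number 2). With the replicate block, the difference at 3 d was -0.0067 for Gbp2 and -0.20 for Iigp1, and members called went from 10 to 9 at 14 d in monocytes (Iigp1 lost), from 6 lower and 1 higher to 5 and 0 at 14 d against 3 d in macrophages (Igtp and Iigp1 lost), and from 4 to 3 for the difference at 14 d (Igtp lost). With a block for each time and number shared by the cell types (chosen after seeing the data), Gbp6 had a 14 d difference of 0.28, and no call but that of Gbp7 between the control groups changed. In all these cases the cause was not tested. At the smallest depth, reached by thinning, Gbp6 and Iigp1 were not tested in macrophages; the stricter filter left them out in both cell types.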
